A study of Mus musculus with 4 samples.

Results

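Nuclei that carried Slc17a6 transcripts without those of Lhx9 and Nr4a2 were described across genes in 4 single-nucleus RNA libraries of the mouse posterior substantia innominata, and set against Gad1 and Gad2 nuclei of the same libraries. A barcode was kept if it had between 500 and 8000 genes and a mitochondrial share under 5%. Among kept barcodes, called nuclei here, the Slc17a6 nuclei had at least 2 unique molecular identifiers (UMIs) of Slc17a6, at most 1 of Lhx9 and Nr4a2 together, 0 of Slc17a7, at most 1 of Gad1 and Gad2 together, and at least 2 of the neuronal genes Syt1, Snap25 and Rbfox3 together. They numbered 958 of 38868 nuclei kept and of 31489 that met the neuronal part of the rule: 348 and 342 in males 1 and 2, and 146 and 122 in females 1 and 2. Values given as 4 numbers keep that order throughout. The comparison population, nuclei with at least 2 UMIs of Gad1 and Gad2 together, numbered 16474. The mice were wild type and aged 8 weeks. The study took the microdissected region from males and from age-matched females, with 2 libraries a sex, to measure sex differences in its neurons. The labels name no strain and do not say whether a library is 1 animal or a pool, nor that the libraries are separate animals. The p-values therefore measure the spread between these libraries, which may be technical. In the gene tests, that spread is estimated with variance shared across genes, not from each gene alone.

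Slc17a6 encodes VGLUT2, the transporter that loads glutamate into synaptic vesicles in most subcortical excitatory neurons. Gad1 and Gad2 encode the enzymes that make GABA. The substantia innominata is a basal forebrain region in which GABAergic neurons, with developmental factors such as Dlx and Lhx6, lie beside cholinergic and glutamatergic neurons. In the hypothalamus and its borders, VGLUT2 neurons are known for other developmental factors, among them Sim1, Otp, Uncx, Lef1 and Tcf7l2.

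The libraries held 158132452 and 144035342 UMIs for males 1 and 2, and 53098268 and 53679351 for females 1 and 2. The Slc17a6 nuclei had a median of 12719.5, 12271.5, 6009 and 6471 UMIs a nucleus in that order, against 13447, 13012, 6112.5 and 6539 in Gad1 and Gad2 nuclei. Male and female libraries also differed in the software version and in the number of genes listed, so sex cannot be told apart from depth and processing. Between the 2 males 23 barcodes were shared, between the 2 females 35, and between the sexes 0. The male libraries differed from each other less than the female libraries did. Within Slc17a6 nuclei, the chi-square between summed counts was 1.69 per degree of freedom for the males and 6.45 for the females. Female 2 stood apart in mitochondrially encoded transcripts, with 4546 of every 1000000 UMIs in Slc17a6 nuclei, while the other libraries had 360, 613 and 343. In its Gad1 and Gad2 nuclei the level was 3254.

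The rule fixed the genes it used, so their values are a description. Slc17a6 nuclei had a median of 2.5, 3, 2 and 2 Slc17a6 UMIs and at most 9, 10, 6 and 6. Of the 4 genes given as markers of these nuclei, Sema3a, Nos1 and Tafa1 were proposed from these data and are likewise given without a test. Sema3a, a secreted axon-guidance semaphorin, was at 372 CPM (counts in 1000000, scaled by edgeR's TMM factors) and 347 in males 1 and 2, and at 305 and 204 in females 1 and 2. In Gad1 and Gad2 nuclei it was at 99.1, 93.7, 95 and 79.9 CPM. Nos1, the neuronal nitric oxide synthase, was at 98.3, 136, 116 and 92.9 CPM against 29.3, 28.3, 28.2 and 30.5. Tafa1, a secreted chemokine-like protein, was at 965, 947, 924 and 687 CPM against 240.4, 241, 297 and 224. All 3 levels were higher in the Slc17a6 nuclei of every library. At least 1 Sema3a UMI was found in 45.7, 45.9, 38.4 and 35.2% of Slc17a6 nuclei and in 38.9, 38, 28.4 and 29.2% of Gad1 and Gad2 nuclei. In oligodendrocyte nuclei, given as a background for free RNA, the shares were 2.16, 2.48, 3.92 and 2.27%, at median depths of 2052, 1982, 1618.5 and 1345.5 UMIs. Sema3a was thus detected in a minority of Slc17a6 nuclei, and the shares of the 2 populations lay nearer to each other than their levels did.

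Against Gad1 and Gad2 nuclei, Slc17a6 nuclei were higher in 14 of 21 tested transcription factors of the diencephalon and hypothalamus and lower in 19 of 25 of the GABAergic forebrain. Of the 21, 4 passed the filter on low counts only through Slc17a6 nuclei and had to differ, so that count is a description. Their own leading genes were Il31ra, Sim1, Nrn1, Bdnf and Tmem163. Each library gave a sum of counts for either population, compared within libraries by edgeR's quasi-likelihood test. Of 16243 genes tested, 1007 (6.20%) were higher and 1170 (7.20%) lower in Slc17a6 nuclei at a Benjamini-Hochberg adjusted p under 0.05; the unadjusted p was under 0.05 for 3739. These shares are the background for the counts on gene lists below. The same 4 libraries gave 1405 calls with DESeq2 and 340 when library was not a term of the fit. In fits chosen after seeing the data, the males alone gave 2335 calls, 1899 of them among the 2177 with the same sign. The females alone gave 802, 730 of them shared in this way.

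The named genes below are members of gene lists and the 15 called genes with the largest fold each way. Those 15 had to reach 20 CPM in the higher population of every library and have the same sign in each. Il31ra encodes a subunit of the receptor for the itch cytokine IL-31. It was at 28 and 30.5 CPM in males 1 and 2, and 34.8 and 49.6 CPM in females 1 and 2, against 1.81, 1.68, 2.74 and 2.26 in Gad1 and Gad2 nuclei (log2 fold 4.08 ± 0.16 SE, edgeR adjusted p = 1.49e-14). Sim1, a bHLH-PAS factor needed for paraventricular neurons and lying on GRCm38 chromosome 10 at 50894754 to 50989152, was at 71.2 and 63.1 CPM in males 1 and 2, and 78.1 and 20.7 CPM in females 1 and 2. In Gad1 and Gad2 nuclei it was at 4.44, 4.42, 3.86 and 2.02 (log2 fold 3.94 ± 0.12, edgeR adjusted p = 1.19e-16). For both genes the 2 populations did not overlap, and Sim1 was lowest in female 2. Nrn1, the activity-regulated neuritin, was at 36.9, 45.4, 33.8 and 58.6 CPM against 3.15, 3.45, 3.65 and 2.73, and the neurotrophin gene Bdnf at 39.6, 27.5, 27.5 and 34.3 against 3.93, 3.21, 2.65 and 2.32 (log2 fold 3.72 and 3.35). Tmem163, a vesicular zinc transporter on chromosome 1 at 127486546 to 127679548, was at 276 and 249.8 CPM in males 1 and 2, and 366 and 343 CPM in females 1 and 2, against 32.2, 29, 52.6 and 31.6 (log2 fold 3.11 ± 0.07, edgeR adjusted p = 7.67e-19). Neither population overlapped the other for these 3 genes. Tmem163 was also the most widely detected of them, in 81.3, 80.4, 78.1 and 74.6% of Slc17a6 nuclei and in 19.98, 17.7, 14.9 and 12.2% of Gad1 and Gad2 nuclei. Oligodendrocyte nuclei carried it in 22.1, 22.3, 22.5 and 15.7%, so its background share could not be read from them. The other leading genes were Chst8, a sulfotransferase, Tcf7l2, Arhgap24, Angpt1 (angiopoietin), Lncenc1, Dach1, the integrin Itga4, Car10, the Wnt potentiator Rspo3 and the calcium-channel subunit Cacna2d1, with log2 folds from 1.72 to 2.59.

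**Figure D1:**
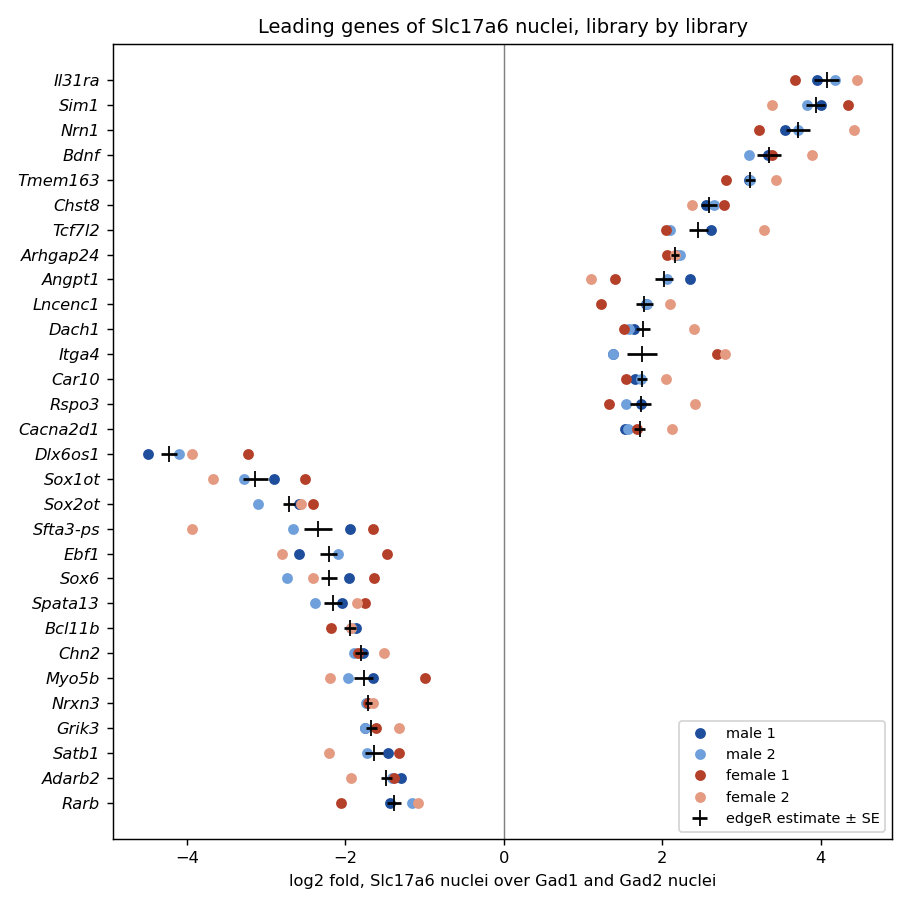
Log2 fold of Slc17a6 nuclei over Gad1 and Gad2 nuclei (x axis) for the 15 leading genes in either direction (y axis); coloured points are the 4 libraries and black marks the edgeR estimate ± SE. The genes were chosen to lie on the same side of 0 in every library, and run from Il31ra at 4.08 to Dlx6os1 at -4.22.

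The leading genes that were lower in Slc17a6 nuclei began with Dlx6os1. It is an antisense transcript over Dlx6 (GRCm38 chromosome 6, 6820189 to 6871592), and since strand use in counting was not given in the sources used here, its reads and those of Dlx6 cannot be told apart. In Slc17a6 nuclei it was at 11.4 and 14.9 CPM in males 1 and 2, and 8.45 and 8.12 CPM in females 1 and 2, against 259, 257, 83.8 and 131 (log2 fold -4.22 ± 0.10, edgeR adjusted p = 1.23e-18). The populations did not overlap. Sox1ot and Sox2ot, transcripts over Sox1 and Sox2, were lower, with log2 folds of -3.14 and -2.71. Among transcription factors Ebf1 (-2.21), Sox6 (-2.20), Bcl11b, a striatal projection neuron factor (-1.94), Satb1 (-1.64) and the retinoic acid receptor Rarb (-1.39) were lower. Satb1 was no longer called when every nucleus was thinned to 3000 UMIs. Sfta3-ps, Spata13, Chn2, Myo5b, Nrxn3, Grik3 and Adarb2 completed the list, with log2 folds between -2.35 and -1.48.

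Transcription factors of the diencephalon and hypothalamus were mostly higher in Slc17a6 nuclei. Of 53 listed, 21 passed the filter on low counts, 4 of them only through Slc17a6 nuclei, and 14 were called higher and 1 lower. The median log2 fold of the 21 was 3.61, against -0.02 over all genes tested. A member that passed only through Slc17a6 nuclei had to differ, so the count is a description. Uncx, a homeobox factor of diencephalic neurons, was at 23.7 and 31.5 CPM in males 1 and 2, and 16.9 and 28 CPM in females 1 and 2, against 1.86, 1.57, 1.20 and 1.30 in Gad1 and Gad2 nuclei (log2 fold 4.05 ± 0.18). Otp, which works with Sim1 in neuroendocrine neurons, was at 6.78, 6.18, 4.22 and 3.61 CPM against 0.303, 0.506, 0.207 and 0.308 (log2 fold 3.98 ± 0.33). In Gad1 and Gad2 nuclei of every library it lay below the filter on low counts, 0.679 CPM. Otp thus passed only through Slc17a6 nuclei, and its values are a description. The LIM-homeobox genes Lhx1, Lhx5 and Lhx2 were higher by 3.97, 3.89 and 3.86, the early B-cell factors Ebf2 and Ebf3 by 3.87 and 3.62, and Nhlh2 by 3.69. The Wnt effectors were at 22, 14.5, 19 and 18.9 CPM for Lef1 against 1.36, 1.26, 1.70 and 2.22, and at 96.4, 60.1, 115 and 118 CPM for Tcf7l2 against 15.8, 14.1, 27.9 and 12.2 (log2 fold 3.61 ± 0.19 and 2.46 ± 0.12). For Uncx, Lef1 and Tcf7l2 the lowest Slc17a6 library lay above the highest Gad1 and Gad2 library. Nhlh2 was not called in the females alone, at a log2 fold of 2.91.

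**Figure D2:**
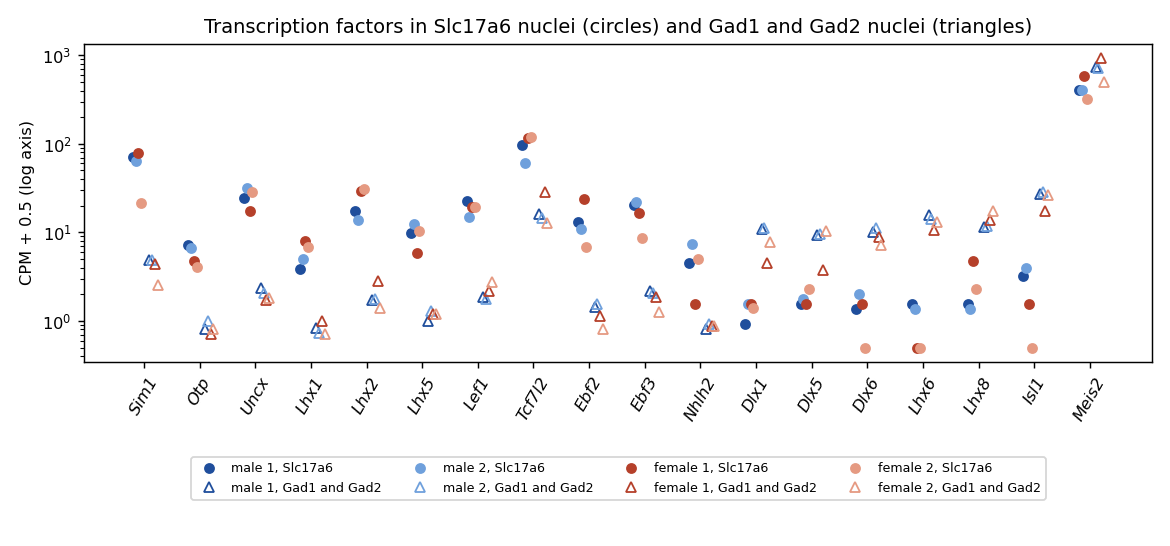
CPM + 0.5 on a log axis for 18 transcription factors (x axis) in each library's Slc17a6 nuclei (filled circles) and Gad1 and Gad2 nuclei (open triangles). From Sim1 to Nhlh2 the circles lie above the triangles of the same library, and from Dlx1 to Meis2 below them. The 18 were chosen from longer lists. In those, 1 diencephalic factor was called lower and 6 were not called, and 1 GABAergic factor was called higher and 5 were not called.

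Forebrain GABAergic transcription factors went the other way. Of 27 listed, 25 were tested, and 19 were lower, 1 higher and 5 not called (median log2 fold -2.20). Lhx6, a factor of interneurons from the medial ganglionic eminence, had 5, 4, 0 and 0 UMIs in Slc17a6 nuclei, or 1.06, 0.853, 0 and 0 CPM, against 15.3, 13.8, 10.04 and 12.7 in Gad1 and Gad2 nuclei (log2 fold -4.15 ± 0.29). Dlx1, Dlx5 and Dlx6 were lower, with log2 folds of -3.62, -2.79 and -3.21, as were Isl1 and Lhx8, which mark striatal and cholinergic lineages, at -3.32 and -3.18. Dlx5, Dlx6 and Lhx8 were not called after thinning, nor Dlx1 and Dlx5 in the females alone, with the same sign in each case. Meis2, which many nuclei of both populations carried, was at 402, 404, 582 and 321 CPM against 735, 710.4, 922 and 505, and female 1 was highest in both. The called member that was higher was Nr2f2, or COUP-TFII (1.21 ± 0.08). Pallial factors were split, with 6 of 19 tested higher and 6 lower (median -0.04); 2 of the 19 passed the filter on low counts only through Slc17a6 nuclei. Tbr1, Neurod1 and Emx2, cortical differentiation factors, were higher by 2.85, 3.59 and 2.22. These are examples from the higher side only, with none given for the 6 lower factors.

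Genes for other transmitters were lower. Of the 18 on that list, 10 were tested, and 7 were lower and 0 higher at the edgeR threshold (7 at an unadjusted p under 0.05, median log2 fold -0.68). Slc32a1, the vesicular GABA transporter, was at 8.05 and 10.2 CPM in males 1 and 2, and 10.6 and 12.6 CPM in females 1 and 2, against 39.2, 41.6, 15.1 and 53 in Gad1 and Gad2 nuclei (log2 fold -2.03 ± 0.14). Female 1 had less of it than the other libraries in Gad1 and Gad2 nuclei, where the 2 populations came closest. Of 7 cholinergic markers tested 6 were lower, among them Chat (-2.35) and Slc5a7 (-2.27), and 1 was higher, the acetylcholinesterase gene Ache (0.36 ± 0.09). Summed over 10 cholinergic markers, Slc17a6 nuclei had 45.8, 48.0, 43.4 and 77.6 unscaled CPM (UMIs in 1000000, without TMM factors), against 93.6, 99.0, 99.5 and 164 in Gad1 and Gad2 nuclei. Slc32a1 and Chat were not called after thinning, with log2 folds of -0.84 and -0.99. Striatal projection neuron markers had 16 of 22 tested lower and 1 higher (median -0.83), among them the adenosine receptor Adora2a (-3.72), the dopamine receptors Drd1 (-1.48) and Drd2 (-0.90), and Ppp1r1b, or DARPP-32. Of 13 tested genes for making, recycling and taking up glutamate, leaving out Slc17a6 itself, 0 were higher, 2 lower and 4 had an unadjusted p under 0.05 in edgeR (median 0.01).

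Markers of glia were low in both populations. The 10 oligodendrocyte markers summed to 329, 334, 495 and 440 unscaled CPM in Slc17a6 nuclei, and to 346, 360, 660 and 551 in Gad1 and Gad2 nuclei, against 12770, 13762, 11713 and 14548 in oligodendrocytes. The 10 astrocyte markers summed to 236, 238, 257 and 497 against 266, 273, 452 and 532. In edgeR 0 markers of glia or vessels were called higher; 3 of 10 oligodendrocyte, 1 of 9 astrocyte, 2 of 7 OPC, 0 of 9 microglia and 1 of 4 vascular genes tested were lower, and 5, 4, 2, 0 and 1 had an unadjusted p under 0.05 in either direction. Of 13 mitochondrially encoded genes edgeR called 8 higher in Slc17a6 nuclei and 0 lower (10 at an unadjusted p under 0.05, median 0.45); their summed level was 360, 613, 343 and 4546 unscaled CPM against 326, 362, 427 and 3254, so female 1 went the other way. Barcodes with at least 2 UMIs of Slc17a6 and at least 2 of Gad1 and Gad2 numbered 204, 176, 24 and 27. The rule leaves them out, and they are part of the Gad1 and Gad2 population. When nuclei with any UMI of Slc17a6 or Slc17a7 were taken out of that population, 2226 genes were called. Of the 2177 called before, 2114 were called again with the same sign. The part of doublets and of free RNA in the levels was not tested.

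Neuropeptide genes were split, with 7 of 28 tested higher, 7 lower and a median of 0.11. Adcyap1, which encodes PACAP, was at 6.14 and 7.03 CPM in males 1 and 2, and 5.28 and 4.51 CPM in females 1 and 2, against 0.771, 0.692, 0.954 and 0.923 (log2 fold 2.96 ± 0.29). Penk (proenkephalin), Pdyn (prodynorphin), Sst (somatostatin), Crh and Tac2 were lower, at -1.14, -1.50, -0.82, -2.45 and -1.87. Trh, for thyrotropin-releasing hormone, was called higher (1.95 ± 0.53), but its log2 fold was 0.13 without male 1 and -0.70 in the females alone. The level in male 1 was the highest of the 4, at 5.30, 0.853, 1.06 and 0 CPM in the usual order. Among 51 tested receptors for peptides and hormones, 12 were higher and 11 lower (median -0.02); 1 passed the filter only through Slc17a6 nuclei. Higher were the relaxin receptor Rxfp1 (2.28 ± 0.20), the cholecystokinin receptor Cckar (2.28 ± 0.44), the galanin receptor Galr1 (1.05) and the orexin receptor Hcrtr2 (1.04). The neurokinin B receptor Tacr3 (-1.54) and the VIP and PACAP receptor Vipr2 (-2.48) were lower. Hcrtr2 was at 58.7, 58.8, 62.3 and 75.8 CPM against 28.5, 28.5, 31.8 and 35.1, without overlap.

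Steroid and nuclear receptors are of interest in a study of sex, and 3 of 24 tested were higher and 8 lower, 1 of the 24 having passed the filter only through Gad1 and Gad2 nuclei. Esr1, oestrogen receptor alpha, was at 52.3 and 37.1 CPM in males 1 and 2, and 32.7 and 48.7 CPM in females 1 and 2, against 27.5, 26.3, 25.8 and 29 in Gad1 and Gad2 nuclei (log2 fold 0.69 ± 0.09, edgeR adjusted p = 4.73e-06). The populations did not overlap, and the sexes did not separate. After thinning, the log2 fold of Esr1 was -0.08. The vitamin D receptor Vdr was lower, at -3.68. Cyp19a1, aromatase, was at 5.30, 1.49, 1.06 and 0 CPM against 7.53, 7.24, 1.45 and 3.62 (log2 fold -1.21 ± 0.31); it was not called without male 2, with DESeq2 or in the females alone.

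Genes of transmitter receptors changed in both directions. Of 23 tested AMPA and kainate receptor genes 3 were higher and 12 lower (median -0.19), and the AMPA auxiliary subunit Shisa6 was higher (1.57 ± 0.08). Of 16 tested genes for NMDA and metabotropic glutamate receptors 2 were higher, among them the metabotropic receptor Grm2 (0.92), and 5 were lower. Grm2 lost its call in the males alone, without female 2 and with the stricter gate. Of 23 GABA and glycine receptor genes 7 were higher, among them the glycine receptor subunit Glra1 (1.30 ± 0.11), and 5 lower, among them the GABA-A subunits Gabrg1 (-1.16) and Gabrd (-1.36), the latter a subunit of extrasynaptic receptors. Of 31 tested receptors for monoamines, acetylcholine and cannabinoids 5 were higher and 9 lower; the higher ones included the serotonin receptor Htr2a (1.08 ± 0.12), the muscarinic receptor Chrm2 (0.95 ± 0.08) and the alpha-2 adrenoceptor Adra2a (1.30 ± 0.37). Htr2a was not called after thinning (0.14), and Adra2a not without either male.

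More guidance and adhesion genes were higher in Slc17a6 nuclei than lower, by small medians. Of all genes tested, 6.20% were higher and 7.20% lower. Beside Sema3a, 15 semaphorin, neuropilin and plexin genes were tested, and 7 were higher and 3 lower (median 0.18), with Sema3d (1.39 ± 0.20) and Sema3e (0.89 ± 0.07) higher and Sema3c lower (-0.90 ± 0.12). Sema3e was not called after thinning. Of 26 Slit, Robo, netrin and ephrin genes 12 were higher and 5 lower (0.19). The membrane-anchored netrin-G genes Ntng2 (2.51 ± 0.19) and Ntng1 (1.01 ± 0.09) were higher, and the secreted netrin Ntn1 lower (-1.70). Of 54 synaptic adhesion genes 20 were higher and 8 lower (0.08). The neurexophilins, ligands of alpha-neurexins, moved in both directions, with Nxph4 at 3.45 ± 0.19, Nxph1 at 1.19 ± 0.09 and Nxph2 at -1.85 ± 0.14. The receptor phosphatase Ptprd was at 7851, 7908, 8280.2 and 6765 CPM against 2767, 2773, 3515 and 2592, without overlap (1.41 ± 0.05). Cadherins and protocadherins had 12 of 24 higher and 6 lower (0.17). Of the Tafa family beside Tafa1, 3 genes were tested and 2 were higher, Tafa2 by 0.56, which was not called after thinning. Of channel genes, 10 of 45 potassium and HCN channel genes were higher and 10 lower, and 4 of 32 sodium, calcium and TRP channel genes were higher and 9 lower. Of 34 calcium-binding and release genes 10 were higher, among them Calb2, or calretinin (1.75 ± 0.18), Syt17 (1.60), Sv2b (1.20) and Unc13c (1.20), and 5 lower. On the nitric oxide list, beside Nos1, 4 of 19 tested genes were higher, among them the cGMP-dependent kinase Prkg2 (0.76 ± 0.08), and 8 lower, among them the phosphodiesterase Pde1a (-1.21 ± 0.06). Of 19 immediate early genes 4 were higher and 3 lower (-0.15).

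Some of these calls were not kept under other settings, and the causes were not tested. Without library as a term, 24 of 101 named genes were not called, among them Meis2, Penk, Pdyn, Sst, Crh, Tac2, Galr1, Vipr2, Esr1, Glra1, Gabrd, Drd2, Nxph2, Sema3c and Sema3d. After thinning, which also left fewer nuclei, 22 of 79 did not keep their call and sign, among them, beside those given above, Pdyn, Sst, Tac2, Galr1, Vipr2, Gabrd, Drd1, Drd2, Ntn1 and Prkg2. In the females alone the 18 of 100 that did not keep their call and sign included Pdyn, Sst, Galr1, Emx2, Adora2a, Drd1 and Nxph2. The sign turned for Esr1 after thinning and for Trh and Cdh23 in the females alone, and was kept in the others.

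Levels just inside and outside the rule are given as a description. Nuclei with 1 Slc17a6 UMI that met the rest of the rule numbered 287, 272, 412 and 370, so in the females more nuclei stood just outside the threshold than inside it. Tmem163 was at 238, 224, 287 and 248 unscaled CPM in these, and at 260.1, 253, 382 and 272 in nuclei with 2. Dlx6os1 was at 28.4, 52.7, 16 and 46.9 with 1 UMI and 13.5, 19.8, 9.36 and 9.13 with 2. In every library, nuclei just outside the threshold had less Tmem163 and more Dlx6os1 than those just inside it, and both lay closer to the members than to Gad1 and Gad2 nuclei. At the other limits, 24, 24, 8 and 7 nuclei had 2 UMIs of Gad1 and Gad2 and met the rest of the rule, beside 89, 60, 29 and 26 members with 1. With 2 UMIs of Lhx9 and Nr4a2 there were 15, 12, 3 and 6, beside 27, 21, 11 and 9 members with 1.

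**Figure D3:**
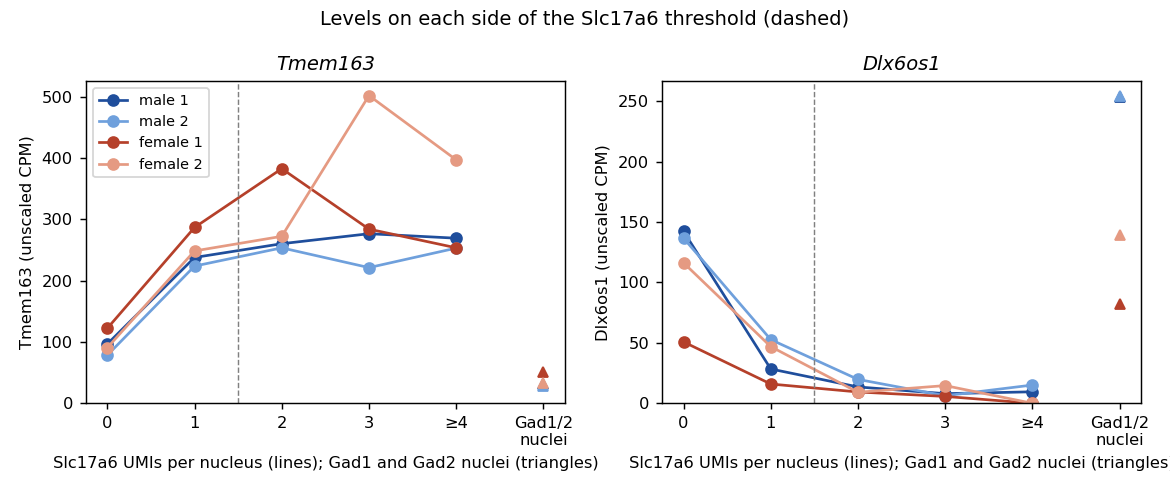
Tmem163 (left) and Dlx6os1 (right) in unscaled CPM, for nuclei grouped by Slc17a6 UMIs that otherwise meet the rule (x axis, lines) and for Gad1 and Gad2 nuclei (triangles), in each of the 4 libraries; the dashed line is the threshold. Dlx6os1 falls from 142 at 0 UMIs to 28.4 at 1 and 13.5 at 2 in male 1, while Tmem163 is already at 238 at 1 UMI.

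Slc17a6 nuclei varied in the developmental factors they carried. Of 15 developmental factors, none had a UMI in 26.1% and 18.7% of the nuclei of males 1 and 2, and in 39.0% and 33.6% of those of females 1 and 2, and 2 or more had one in 39.4%, 48.0%, 18.5% and 32.0%, the females being the shallower libraries. Sets were formed by a gene with at least 2 UMIs, and 17 of 51 genes tried gave at least 20 nuclei. Since each set is chosen by its gene within these nuclei, levels are given without a test, in unscaled CPM, and sets overlap. Leading genes of a set were ranked by their smallest difference from the other nuclei, over libraries with at least 5 set nuclei. A shared direction across those libraries was therefore built into the ranking.

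The Sim1 set held 53, 59, 13 and 6 nuclei. The homeobox factor Meis2 was at 14.1, 34.7, 44.8 and 39.6 in it and at 459, 475, 623 and 359.6 in the rest of the Slc17a6 nuclei. Pou3f2, or BRN2, a factor that follows Sim1 in paraventricular development, was at 30.7, 22, 33.6 and 39.6 against 4.14, 4.58, 3.42 and 7.13. Sema3a was at 101, 64.8, 56 and 52.8 against 408, 401, 323 and 226. The Sim1 set was thus lower than the rest in Meis2 and Sema3a and higher in Pou3f2, in every library by the choice of these genes. The Tcf7l2 set held 44, 42, 22 and 18 nuclei, with high Ptprm, Sox5, Dach1, Sema3e, Ntng2 and Calb1 (calbindin). The receptor phosphatase Ptprm was at 766, 585, 898 and 812 in it and at 119, 90.7, 152 and 107 in the rest. Sim1 was at 8.06, 0, 6.70 and 0 against 79.6, 70.6, 89.2 and 27.8. Both directions held in the 4 libraries, again by the choice of these genes. The Foxp2 set held 87, 87, 26 and 17 nuclei, and Foxp2 itself, a forkhead factor, did not differ between Slc17a6 and Gad1 and Gad2 nuclei by edgeR's test (log2 fold 0.02 ± 0.06, adjusted p = 0.898). Sema3a was at 1021, 879.9, 995 and 624 in the set and at 107, 95, 90.05 and 107 in the rest. Sema3a was thus the leading gene of the Foxp2 set by that ranking. Trpm3, a heat-gated channel, and Nos1 were also high there, and Sox5 and Tcf7l2 low. The Nos1 set, of 103, 113, 30 and 20 nuclei, had the same leading gene, with Sema3a at 732, 668, 704 and 408 against 163, 126, 166 and 147.

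Smaller sets ran along these lines. The Lef1 set, of 24, 14, 7 and 6 nuclei, had high Ext1, Frem1, Rspo3 and the neuropeptide S receptor Npsr1, and Sim1 was at 0 in it in all 4 libraries. In the Lhx2 set, of 18, 11, 6 and 6 nuclei, Tcf7l2, Ntng2 and Calb1 led. The Ebf3 set, of 14, 22, 3 and 2 nuclei, was described in the males. There Avp, which encodes vasopressin, was at 791 and 741 unscaled CPM against 8.31 and 15.3 in the rest, Sim1 at 416 and 318 against 54.1 and 41.3, and the immediate early gene Jun at 188 and 135 against 5.97 and 6.09. The Nts (neurotensin) set held 13, 12, 1 and 4 nuclei. In the males, Pappa2, a protease that frees insulin-like growth factor, was at 477 and 569.6 against 49.2 and 9.36, and the matrix protein Hmcn1 at 182 and 692 against 25.3 and 12.2. The Rorb set, of 36, 26, 12 and 9 nuclei, was led by astrocyte genes, with the glutamate transporter Slc1a2 at 379, 387, 203 and 550.2 against 82.5, 81.2, 67.5 and 65.2, and is given no name. The Esr1 set, of 55, 33, 6 and 10 nuclei, was led by the collagen Col25a1, and Esr2, Nkain3 and Tafa1 were among its 10 leading genes.

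Detection in the same nuclei showed the same separation, given for the 690 nuclei of both males pooled as a description. A gene is found more often in deeper nuclei, and nuclei with and without a gene were not matched for depth. From the 5th to the 95th percentile these nuclei had 6710 to 26511 UMIs in male 1 and 7256 to 28023 in male 2. The part of depth in the shares was not tested. Tcf7l2 was found in 5.67% of nuclei with Sim1 (8 of 141) and in 20.8% of those without. In the 268 female nuclei the shares were 8.82% and 21.4%. Sim1 was found in 69.1% of male nuclei with Ebf3 (38 of 55) and 16.2% of those without. Foxp2 was found in 75.9% of nuclei with Otp and 31.4% of those without, and Nos1 in 67.6% of nuclei with Foxp2 and 40.1% without. In the female nuclei this last pair of shares was 54.3% and 24.7%. Il31ra was found in 34.4% of male nuclei with Tcf7l2 and 7.75% of those without. Sim1 had a UMI in 0.270, 0, 0.412 and 0.0988% of oligodendrocyte nuclei, but Tcf7l2 in 16.6, 15.7, 19.2 and 12.1%, a gene those cells also express; the part of free RNA was not tested.

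**Figure D4:**
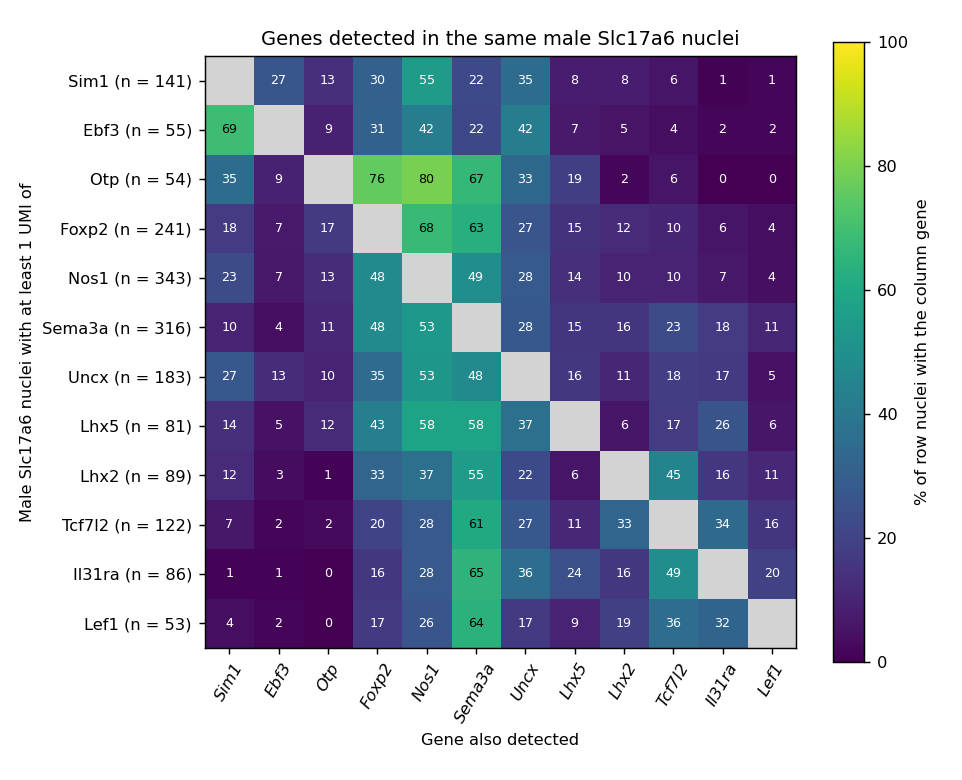
Share of male Slc17a6 nuclei with at least 1 UMI of the gene at left (number in parentheses) that also had at least 1 UMI of the gene below, in percent. Ebf3 and Sim1, Otp with Foxp2 and Nos1, and Il31ra with Tcf7l2 stand out, and Sim1 shares few nuclei with Tcf7l2, Il31ra or Lef1.

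Slc17a6 nuclei that did carry Lhx9 or Nr4a2 (at least 2 UMIs together, the rest of the rule unchanged) were few, 26, 28, 5 and 11, so contrasts with them rest on little RNA (398684, 434851, 43266 and 132731 UMIs). Low counts of Lhx9 and Nr4a2 in the other group were fixed by the rule, and both genes are left out of the test. That group is called lacking the pair here, although the rule allows 1 UMI of it. Of 7835 genes tested, edgeR called 157 (2.00%) higher and 127 (1.62%) lower in the nuclei lacking the pair (832 at an unadjusted p under 0.05). By DESeq2 there were 144, and 59 were called without library as a term. The stricter gate gave 21, from 3, 9, 2 and 1 nuclei. Tcf7l2, Sim1, Syt2, Itga4, Rspo3, Dach1, Il31ra, Esr1 and Sema3e were among the 15 leading genes. Tcf7l2 had 455, 282, 109 and 131 UMIs in Slc17a6 nuclei lacking the pair, and 2, 1, 0 and 0 UMIs in those carrying it, a ratio of UMI shares of 28.1 (95% exact interval of the counts, 9.58 to 136). In the carrying nuclei of every library, Tcf7l2 lay below the filter on low counts, 14.3 CPM. It passed only through the nuclei lacking the pair and had to differ, so its values are a description. Sim1 had 336, 296, 74 and 23 against 6, 0, 0 and 0 UMIs, a ratio of 10.5 (4.79 to 28.6). These intervals cover counting error only. Sema3a, which the comparison with Gad1 and Gad2 nuclei could not test, was at 386 and 363 CPM in males 1 and 2, and 319 and 222 CPM in females 1 and 2, against 101, 99.7, 87.1 and 23.5 in the nuclei with the pair (log2 fold 2.02 ± 0.20, edgeR adjusted p = 8.91e-09). The groups did not overlap. Since these markers were proposed from the same nuclei, the test is not independent of that choice. Nos1 did not pass the test in this contrast (0.23 ± 0.21, edgeR adjusted p = 0.851), and Tafa1 had a log2 fold of 0.56 ± 0.14 (adjusted p = 0.0116). Esr1 was higher in the nuclei lacking the pair (2.16 ± 0.41, edgeR adjusted p = 0.000754), at 247, 174, 31 and 54 against 6, 4, 0 and 0 UMIs. It was not called in the females alone or without library as a term. The same held for others of the 30 leading genes of this contrast. Of these, 20 were not called in the females alone and 10 without library as a term. With the stricter gate 6 could be refitted, and 2 of them were not called.

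Genes lower in the nuclei lacking the pair were led by Bche, butyrylcholinesterase, at 5.73 and 10.9 CPM in males 1 and 2, and 21 and 7.85 CPM in females 1 and 2, against 37.3, 44.9, 152 and 46.9 (log2 fold -2.43 ± 0.34). The phosphodiesterase Pde1c (-2.23), the potassium channel Kcnh8 (-1.91) and Npsr1 (-1.64) were also lower. Immediate early genes were on the same side, with 5 of 7 tested lower in edgeR, 0 higher (5 at an unadjusted p under 0.05) and a median of -1.47, against 0.00 over all genes tested, namely Junb (-1.68), Fos (-1.75), Egr1 (-1.48), Btg2 (-1.47) and Nr4a1 (-1.31). Nr4a2, which the rule used, is itself an immediate early gene, and 7 of the 20 listed could be tested. Of 8 tested diencephalic factors 3 were higher and 1 lower, 1 of the 8 having passed the filter only through the nuclei lacking the pair, and of 20 cadherins 7 were higher and 2 lower.

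Slc17a6 nuclei were a larger share of male than of female libraries. They made up 3.94% (95% exact binomial interval 3.55 to 4.37) and 3.99% (3.58 to 4.42) of nuclei kept from males 1 and 2. In females 1 and 2 the shares were 1.34% (1.13 to 1.58) and 1.15% (0.958 to 1.38). The male mean was 3.96% and the female mean 1.25%, 3.18 times apart; the exact two-sided permutation test gave p = 0.333, the smallest that 2 against 2 libraries allow. Both males lay above both females, but the rule counts UMIs and the males were deeper. With every nucleus thinned to 3000 UMIs, and shallower ones left out, 75, 80, 52 and 36 nuclei met the rule, or 1.00%, 1.12%, 0.742% and 0.570% of those remaining, 1.62 times apart. As a share of Slc17a6 and Gad1 and Gad2 nuclei together, both of which need UMIs, they were 6.57%, 6.68%, 3.95% and 3.67%, and 4.22%, 4.58%, 2.91% and 2.43% after thinning. The males stayed above the females in each of these measures. The factor fell with thinning and rose to 6.74 with the stricter gate, at means of 1.55% and 0.230%. In every one, sex cannot be told apart from the processing of the libraries.

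**Figure D5:**
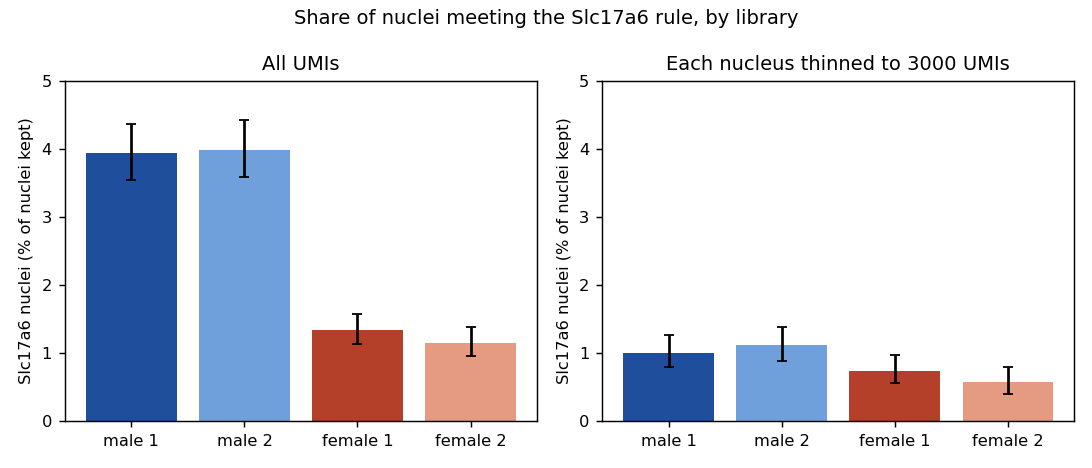
Slc17a6 nuclei as a percentage of nuclei kept in each library (bars, with 95% exact binomial intervals), from all UMIs (left) and with each nucleus thinned to 3000 UMIs (right). The males are at 3.94 and 3.99 and the females at 1.34 and 1.15 at left, and at 1.00 and 1.12 against 0.742 and 0.570 at right.

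Within Slc17a6 nuclei, few genes were called between the sexes, sex-linked genes among them. Of 12457 genes, edgeR called 4 (0.0321%) higher and 2 (0.0161%) lower in males (1657 at an unadjusted p under 0.05). By DESeq2 there were 182. Xist, the X-inactivation RNA, had 0, 0, 1139 and 1271 UMIs and was at least 3841-fold higher in females, setting the floor at 3 counts over the males (edgeR adjusted p = 0.00119). The Y-linked genes Uty and Eif2s3y had 0 UMIs in both females and were at least 105-fold and 85.3-fold higher in males, and Kdm5d was higher by a ratio of 122 (21.8 to 4832). Ddx3y, also Y-linked, had 503 UMIs in the males and 0 in the females and was not called, so genes not called may still differ. The library labels and these genes did not conflict. The other 2 called were the unnamed models Gm55122, at 113, 113, 7.42 and 4.59 CPM, and B230217J21Rik, at 3.98, 4.44, 46.6 and 41.3 CPM; they are named here after their values were seen, and the sexes' files were made with different gene lists. With 1 female library left out, 1672 genes were called without female 1 and 2644 without female 2, where the lone female is assumed to vary like the males. Esr1 did not pass (0.09 ± 0.29, edgeR adjusted p = 0.925).

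The difference between Slc17a6 and Gad1 and Gad2 nuclei was then compared between the sexes. Of 17844 genes, 51 (0.286%) had a higher and 36 (0.202%) a lower fold in males by edgeR (1139 at an unadjusted p under 0.05). By DESeq2 there were 11, no gene was called when library was not a term, and after thinning 6 were called, 3 of them among the 87. In Slc17a6 nuclei Pappa2 was at 68.5 and 33.1 CPM in males 1 and 2, and 10.4 and 1.76 CPM in females 1 and 2, and it was at 1.52, 2.35, 7.06 and 2.21 in Gad1 and Gad2 nuclei (male minus female 4.32 ± 0.38, edgeR adjusted p = 9.49e-26). The males were higher in Slc17a6 nuclei and the 2 sexes overlapped in the others. Adjusted p-values this small rest largely on variance shared across genes, and Pappa2 itself varied between libraries of the same sex. Pappa2 and Hmcn1 (1.42 ± 0.34) led the Nts set, which held 13, 12, 1 and 4 nuclei, and the part of that set in the difference was not tested. Fstl4, a follistatin-like protein, was at 147, 138, 67.5 and 51.1 CPM in Slc17a6 nuclei against 239, 237, 237 and 227 (1.24 ± 0.14, edgeR adjusted p = 5.38e-14). On the female side, the alpha-1 adrenoceptor Adra1b was at 9.33, 5.12, 21.8 and 35.3 CPM against 7.75, 7.27, 8.38 and 8.76 (-1.81 ± 0.31), and Sox5, a factor high in the Tcf7l2 set, at 203, 183, 367 and 189 against 154, 149.9, 124 and 78.8 (-1.09 ± 0.10, edgeR adjusted p = 1.47e-22). Both females lay above both males for Adra1b. For Sox5, female 1 stood above the other 3 libraries in Slc17a6 nuclei, and the females were lower in Gad1 and Gad2 nuclei. The Tcf7l2 set was 12.6% and 12.3% of male and 15.1% and 14.8% of female Slc17a6 nuclei. The steroid receptors Esr1, Esr2 and Pgr were not called, with edgeR adjusted p of 0.973, 0.876 and 0.597.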

How the data were processed

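Nuclei of the posterior substantia innominata were profiled by droplet-based 3' RNA sequencing in 4 libraries. The authors deposited unnormalized UMI count matrices, per the files; Cell Ranger 6.0.1 and Seurat 5 are named in the submitters' processing notes, while the file headers give Cell Ranger 9.0.1 for both males and 7.0.0 and 7.2.0 for the females. Read strand and alignment settings are not given in the sources used here. The gene lists of the files held 33696, 33696, 55357 and 32285 genes, and 31899 were shared by ID and used. Coordinates are from GENCODE vM21 (GRCm38), which matched 31851 of them.

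Nuclei were gated on raw UMIs and their counts summed by library and population. The sums were tested with edgeR 4.0.16 (TMM scaling, its filter on low counts, quasi-likelihood test, Benjamini-Hochberg) in R 4.3.3, with DESeq2 1.42.0 as an alternative. The 9 genes of the rule and Sema3a, Nos1 and Tafa1 were left out of tests against Gad1 and Gad2 nuclei. Both populations of a library come from the same nuclear suspension, so library was a term in these fits; replicate numbers do not pair males with females. The fits were tested on simulated data. Shares were compared by an exact permutation test. Doublets were not removed: the automatic Scrublet threshold marked at most 0.0109% of barcodes and had not worked, so the top-scoring barcodes (0.8% per 1000) were left out as an alternative. Oligodendrocyte nuclei had at least 5 UMIs of oligodendrocyte markers and at most 1 of the neuronal genes. Intervals cover counting error only. The members, gene lists and tests were chosen with earlier results of these data known. Named genes were the 15 with the largest fold each way past the threshold (at least 20 CPM in the higher group of every library, same sign in each, no unnamed, mitochondrial, sex-linked or rule gene), and 2 to 6 examples a list by adjusted p or known role. Some genes that this rule would name are not reported here.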

Additional observations from a re-analysis of the deposited data

Results flagged for a closer look

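For 87 genes, the fold between Slc17a6 nuclei and Gad1 and Gad2 nuclei differed between the sexes by edgeR's test of the interaction (51 higher and 36 lower in males). With 2 libraries a sex, sex cannot be told apart from depth, software version and gene list. The differences in log2 fold, male minus female, were 4.32 for Pappa2, 1.42 for Hmcn1, 1.24 for Fstl4, 1.23 for Arhgap10 and 1.09 for Dram1, a lysosomal protein. They were -1.81 for Adra1b, -1.34 for Itga4, -1.22 for the synaptotagmin Syt6, -1.09 for Sox5 and -1.01 for Ntng2. Itga4 was at 22.1, 22.8, 33.2 and 30.8 CPM in Slc17a6 nuclei and at 8.62, 8.87, 5.24 and 4.65 in Gad1 and Gad2 nuclei, so the females were higher in the former and lower in the latter. Hmcn1 was at 32.7, 40.9, 6.23 and 13.2 CPM against 7.03, 6.47, 5.28 and 4.62, with both males above both females in Slc17a6 nuclei. None of the 10 was called without library as a term or after thinning, where Syt6 and Ntng2 also changed sign. Calls were lost for 7 with DESeq2, 6 with the stricter gate, 5 and 7 without males 1 and 2, and 2 and 5 without females 1 and 2.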

How the results depend on the processing

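With DESeq2, 1405 genes were called against Gad1 and Gad2 nuclei (2177 by edgeR), 144 against Slc17a6 nuclei with Lhx9 or Nr4a2 (284), 182 between the sexes (6) and 11 for the interaction (87). The stricter gate gave 1300, 21, 13 and 15. Thinning gave 490 against Gad1 and Gad2 nuclei, 17 between the sexes and 6 for the interaction; against nuclei with Lhx9 or Nr4a2 it left too few and could not be fitted. Without a filter on low counts 0 genes were called between the sexes, and 3221 against Gad1 and Gad2 nuclei, split 821 higher and 2400 lower. In fits chosen after seeing the data, the females alone gave 802 and 112 calls in the first 2 contrasts. Median-ratio scaling kept every count within 1.5 times.

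Library is the replicate block of these fits: with no replicate block, 340, 59 and 0 genes were called in the 3 contrasts of populations. Replicate numbers as a replicate block between the sexes, which the labels do not tie to a shared origin, gave 17.

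Leaving out 1 library gave 1366 to 2102 calls against Gad1 and Gad2 nuclei (1403 without male 1 and 1366 without male 2), 152 to 274 against nuclei with Lhx9 or Nr4a2 (152 without male 1), 8 to 2644 between the sexes and 16 to 154 for the interaction (16 and 18 without males 1 and 2, and 154 and 141 without females 1 and 2). The difference in share ranged from 2.62 to 2.81 percentage points.

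Of 101 named genes against Gad1 and Gad2 nuclei, 24 did not keep their call and sign with no replicate block, 22 of 79 refitted after thinning, 18 of 100 in the females alone and 7 with DESeq2. Against nuclei with Lhx9 or Nr4a2, 20 of 30 lost their call in the females alone and 10 with no replicate block. With the stricter gate, 2 of 6 refitted lost it. Signs turned for Trh (-0.70) and Cdh23 (-1.73) in the females alone, Esr1 after thinning (-0.080), and for the interaction of Syt6 (0.28) and Ntng2 (1.07) after thinning. The causes were not tested. The sums for the females are the shallowest, with 967246 and 1057363 UMIs.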
